A study of Mus musculus with 4 samples.

Results

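The 36 genes described here are the immediate early and activity-induced genes, chosen by symbol from a list of genes known for fast induction in stimulated cells, out of 32285 genes counted in single nuclei from mouse PVN tissue. The PVN, or paraventricular nucleus, is a hypothalamic centre of stress, feeding and autonomic control. All 36 were found in the count tables. The tissue came from male C57Bl6 mice, 10 weeks old in the sample labels and 10 to 12 weeks in the series text, and the labels name no genetic change and no treatment other than time of day. Nuclei were isolated from 5 pooled PVN micropunches per library at zeitgeber time 8 (ZT8, 8 hours after lights on, in the day) or ZT20 (in the night), and 2 libraries were made at each time with the 10x Genomics droplet assay for transcript 3' ends. Nothing in the labels ties the 2 libraries of each time to different animals, so the tests see only library-to-library spread, which may be technical.

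Immediate early genes are switched on within minutes of a stimulus by transcription factors that are already present in the cell, such as CREB and SRF, which are reached by calcium, cyclic AMP and MAP kinase signals. Many encode transcription factors (the FOS, JUN, EGR, NR4A and KLF families), and others encode synaptic proteins (Arc, Homer1), secreted factors (Bdnf, Nptx2) or phosphatases that end the signal (the Dusp genes). In the brain their transcripts are widely read as a trace of recent neuronal activity, and in the hypothalamus Fos marks neurons reached by stress, osmotic and feeding stimuli.

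Promoter sequences are shown for 5 members, namely Fos, Fosb, Junb and Btg2, whose levels differed between the times in neuron-like nuclei and in both neuron clusters 2 and 3 below, and Nr4a2, which had the smallest p in neuron-like nuclei. Nr4a3 shares the pattern of the first 4 and is not shown, since most of its stretch lies within the gene as GENCODE draws it. Each is the stretch of 250 bases before the RefSeq transcription start on build GRCm38.p6, written 5' to 3' in the direction of transcription. Capitals mark the core of the cyclic AMP response element (CRE), the letters TGACG or, on the other strand, CGTCA. Overlapping cores on both strands make the full CRE, TGACGTCA.
Fos (chr12:85473640-85473889, plus strand): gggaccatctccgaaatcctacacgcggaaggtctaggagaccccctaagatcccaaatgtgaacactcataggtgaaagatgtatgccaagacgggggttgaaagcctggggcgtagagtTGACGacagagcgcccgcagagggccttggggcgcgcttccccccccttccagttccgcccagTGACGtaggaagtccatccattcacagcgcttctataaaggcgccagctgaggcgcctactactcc
Fosb (chr7:19310046-19310295, minus strand): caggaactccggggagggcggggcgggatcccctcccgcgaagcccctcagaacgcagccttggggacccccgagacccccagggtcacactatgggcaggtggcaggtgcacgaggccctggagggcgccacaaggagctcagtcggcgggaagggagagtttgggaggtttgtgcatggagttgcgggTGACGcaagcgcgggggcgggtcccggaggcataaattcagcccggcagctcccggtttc
Junb (chr8:84978749-84978998, minus strand): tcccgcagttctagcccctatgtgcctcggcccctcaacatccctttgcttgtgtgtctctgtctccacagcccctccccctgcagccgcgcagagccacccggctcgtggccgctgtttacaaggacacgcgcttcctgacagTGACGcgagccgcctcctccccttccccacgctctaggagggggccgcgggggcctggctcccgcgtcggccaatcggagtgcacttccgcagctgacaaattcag
Btg2 (chr1:134079156-134079405, minus strand): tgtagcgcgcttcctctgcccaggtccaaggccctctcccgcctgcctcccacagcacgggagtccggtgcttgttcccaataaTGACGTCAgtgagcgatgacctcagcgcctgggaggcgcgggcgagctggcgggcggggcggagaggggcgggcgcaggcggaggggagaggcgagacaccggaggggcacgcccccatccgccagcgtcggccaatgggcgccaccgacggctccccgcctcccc
Nr4a2 (chr2:57124004-57124253, minus strand): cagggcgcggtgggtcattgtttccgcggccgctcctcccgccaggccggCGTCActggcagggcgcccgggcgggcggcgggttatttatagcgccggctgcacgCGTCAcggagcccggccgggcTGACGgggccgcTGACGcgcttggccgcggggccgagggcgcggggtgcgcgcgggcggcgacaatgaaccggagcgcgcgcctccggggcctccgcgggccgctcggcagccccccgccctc
Fos and Nr4a2 hold the core site more than once, Fosb and Junb hold it 1 time each, and Btg2 holds it on both strands as 1 full CRE. The last 6 bases of the Fosb stretch lie within the gene as GENCODE draws it on mm10. RefSeq promoters were at hand for 27 of the 36 members, and 19 of these 27 hold a core site in the 250 bases before at least 1 start. Of the 22 members with a single start, 14 hold it, or 63.6%, against 17.8% of all 32851 mouse promoters of the same length. The full CRE is in 3 of the 27 (Btg2, Dusp1 and Maff), against 1.55% of all promoters. A CArG box, the site named for SRF, is in 2 of the 27 (Dusp5 and Egr2), against 1.47%. These 2 counts take a member if any of its starts holds the site, while the percentages are per promoter. Maff and Egr2 have several starts, and Btg2, Dusp1 and Dusp5 have a single start. These matches describe letters only.

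After filtering, the ZT8 libraries kept 6053 and 6513 nuclei and the ZT20 libraries 7747 and 8667, from 57970649 to 69223344 unique molecular identifiers (UMIs, each a counted transcript) per library. The 10587 neuron-like nuclei, named from their markers, were 2388 and 2550 by day and 2862 and 2787 by night, with median depths of 12122 to 14698 UMIs. Any 2 libraries shared 10 to 25 barcodes. Few neurons carried the markers of the labelled tissue: PVN-like neurons, with markers such as Sim1, Otp, Avp and Oxt, were 20 and 24 by day and 198 and 169 by night, whereas thalamic-like neurons were 1030 and 1125 by day and 704 and 647 by night. The makeup of the neurons therefore differed between the times, so the tests of times in neuron classes were run again with makeup held equal. The ZT20 libraries also held more unnamed barcodes of few UMIs (3164 and 4229 against 1501 and 1649), which count in all nuclei pooled.

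In neuron-like nuclei, 12 members were higher and 6 were lower at ZT20 than at ZT8 of the 35 that could be tested (edgeR quasi-likelihood test of UMI sums per library, adjusted p under 0.05 over all genes). Of all 19569 genes tested, 43.4% were called, so the share of members called was near that of genes at large. By direction, 21.8% of all genes were higher and 21.6% lower. The median log2 change was 0.08 over the members and 0.01 over all genes. Atf3, a stress-induced partner of the JUN proteins, was the member with too few UMIs to test. In sums of this kind, fewer cells of a type and less RNA per cell cannot be told apart.

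The family of NR4A orphan nuclear receptors held the smallest p of the members. Nr4a2, also a differentiation factor of dopamine neurons, was at 7.48 and 7.80 CPM at ZT8 and 17.2 and 18.7 at ZT20, where CPM is a gene's UMIs scaled to a common library total. Both night libraries were far above both day libraries, and the log2 change was 1.18 ± 0.07 (SE, 2 libraries per time; edgeR adjusted p = 2.4e-11). Nr4a3 was higher at ZT20 by 0.38 ± 0.08 on the log2 scale. Nr4a1 did not pass the test (-0.10 ± 0.06), and its libraries overlapped.

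Of the FOS family, which binds DNA as dimers with JUN proteins, Fos stood at 8.28 and 7.30 CPM at ZT8 and 11.6 and 11.8 at ZT20. The groups did not overlap, and the log2 change was 0.54 ± 0.08 (edgeR adjusted p = 1.3e-05). Fosl2 went from 2.21 and 2.15 to 4.52 and 4.5 CPM, a log2 change of 0.99 ± 0.13, and Fosb rose by 0.90 ± 0.16. The libraries of each time lay close together for both genes. Among the JUN genes, Junb stood at 8.14 and 8.06 CPM at ZT8 and 12.5 and 14.1 at ZT20, without overlap (0.66 ± 0.08). Jund rose by 0.15 ± 0.04, while Jun did not pass (0.15 ± 0.09). Junb overlaps Prdx2, Jun overlaps Junos and Jund overlaps Gm11175 on the opposite strand, and Bdnf, Crem, Dusp1, Dusp5, Atf3, Homer1 and Csrnp1 also overlap other annotated genes. Whether counting used strand is not given in the sources used here, so the levels of these members are uncertain to that extent. Csrnp1 (with Cx3cr1), Dusp1 and Homer1 overlap genes on their own strand. Their levels stay uncertain even if strand was used.

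Of the activity effectors, Bdnf, a secreted growth factor of synapses, was at 23.9 and 22.6 CPM at ZT8 and 31.9 and 34.2 at ZT20, again without overlap (0.45 ± 0.05). Nptx2, a secreted organizer of glutamate receptors, moved the other way, from 15.7 and 15.5 to 12.6 and 11.8 CPM (-0.41 ± 0.07). Every night library was below every day library. Arc (0.07 ± 0.17), Npas4 (-0.01 ± 0.08) and Homer1 (0.06 ± 0.03) did not pass the test. Those 3 encode a synaptic capsid-like protein, a neuron-specific transcription factor and a postsynaptic scaffold.

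Btg2, an antiproliferative gene, stood at 10.2 and 9.02 CPM at ZT8 and 15 and 14 at ZT20 (0.54 ± 0.08). The day and night libraries were apart. Klf6, a zinc finger factor, was lower at night, at 39.8 and 44.2 CPM at ZT8 and 34.2 and 31.9 at ZT20 (-0.40 ± 0.05). The remaining members called higher were Egr4 (0.62 ± 0.18), Egr3 (0.45 ± 0.18) and Crem (0.25 ± 0.05), the last of which encodes activators and repressors that bind the CRE. Those called lower were the MAP kinase phosphatases Dusp6 (-0.43 ± 0.10) and Dusp5 (-0.52 ± 0.17), the pseudokinase gene Trib1 (-0.49 ± 0.16) and Csrnp1 (-0.83 ± 0.23). Egr1, the most widely used marker of the EGR family, did not pass (-0.13 ± 0.07).

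**Figure D1:**
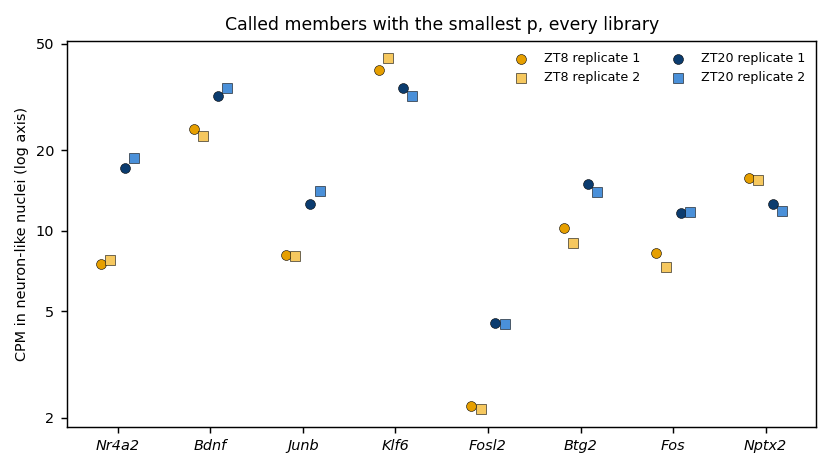
CPM (log axis) of the 8 called members with the smallest p in neuron-like nuclei; each point is 1 library, with ZT8 in orange and yellow and ZT20 in blue. For each gene the ZT8 points and the ZT20 points do not overlap, with Klf6 and Nptx2 lower at ZT20 and the other 6 higher.

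By family, the called members were 3 higher of 4 tested for the Fos family and partners, 2 of 3 for JUN, 2 of 4 for EGR and 2 of 3 for NR4A, with none lower, beside 43.4% of all genes called and 21.8% higher. None of the 4 phosphatases was higher and 2 were lower, and of the 3 Kruppel-like factors 1 was lower, beside 21.6% of all genes lower. At equal makeup, described next, neither EGR call and neither phosphatase call was left. With DESeq2 in place of edgeR, 9 members were higher and 2 lower, against 26.6% of the 17930 genes to which it gave an adjusted p. The DESeq2 percentages for other classes are likewise over genes given an adjusted p. Members without one could not be called. With every nucleus thinned to 1000 UMIs, 21 members had enough UMIs to test, and 3 were higher (Nr4a2, Fosl2 and Homer1) and 1 lower (Klf6), against 13.6% of genes.

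A different set of calls came from the same nuclei once makeup was held equal. Here each neuron cluster gave equally many nuclei in every library, 1568 nuclei per library over 38 clusters. Of 34 members tested, 10 were higher and none lower, against 19.9% of genes called and 10.6% called higher. The members with a higher call both ways were 8 in number: Nr4a2 (0.73 ± 0.09), Fos (0.77 ± 0.10), Bdnf (0.46 ± 0.07), Btg2 (0.59 ± 0.09), Fosb (1.15 ± 0.19), Fosl2 (0.97 ± 0.17), Nr4a3 (0.62 ± 0.12) and Junb (0.45 ± 0.10). Nr4a1 (0.24 ± 0.08) and Dusp1 (0.39 ± 0.12), a phosphatase of MAP kinases, were called at equal makeup only. No lower call was left: Klf6 was at 0.14 ± 0.06, Nptx2 at 0.00 ± 0.08 and Dusp5 at 0.09 ± 0.23, none past the test. Dusp6, Trib1 and Csrnp1 stayed below 0 and lost only their call, in a set with fewer nuclei. The difference between the 2 sets of calls was not tested.

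**Figure D2:**
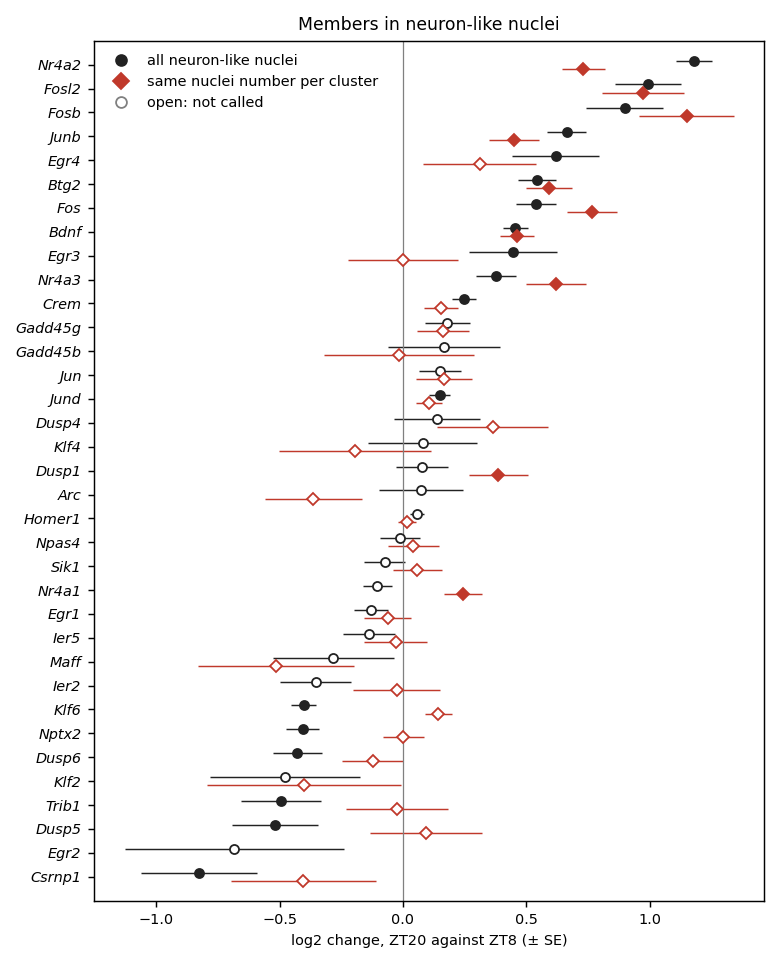
The log2 change from ZT8 to ZT20 of the 35 members tested in neuron-like nuclei, with its standard error; black circles are all neuron-like nuclei and red diamonds equally many nuclei per cluster in every library, filled where called. The members at the top stay to the right of 0 both ways, whereas Klf6, Nptx2 and Dusp5, filled and left of 0 for all nuclei, are open and at or right of 0 at equal makeup. Dusp6, Trib1 and Csrnp1 are open but still left of 0 at equal makeup.

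Other genes of the pathway were counted alongside, against the same 43.4% of all genes called in neuron-like nuclei and 19.9% at equal makeup. Of 26 genes that relay activity to the nucleus, 4 were higher and 12 lower in neuron-like nuclei (median -0.06), led by the calcium channel gene Cacna1c (-0.56 ± 0.02), Mef2a (-0.38 ± 0.02) and Mef2c (-0.33 ± 0.02). At equal makeup, 4 were higher and 4 lower. Of 20 late response genes, which follow the immediate early genes, 6 were higher and 6 lower (median -0.00), led by the granin gene Scg2 (0.79 ± 0.02), the prohormone convertase gene Pcsk1 (0.79 ± 0.05) and Rasgrp1 (-0.43 ± 0.03). With makeup equal, 5 of 18 were higher and 1 lower. The heat shock list, which includes genes that respond to tissue handling, was higher for 9 of 10 and lower for none (median 0.31), led by Hsp90ab1 (0.33 ± 0.02), Hspe1 (0.53 ± 0.04) and Hspa8 (0.28 ± 0.03). Its summed level was 722 and 756 CPM at ZT8 and 935 and 927 at ZT20, and 7 of 10 were higher at equal makeup. Its part in the members' changes was not tested.

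All nuclei pooled gave 14 members higher and 6 lower of 36, against 47.7% of genes called (24.3% higher and 23.4% lower). Nr4a2 was at 7.47 and 7.80 CPM at ZT8 and 17 and 18.9 at ZT20 (1.19 ± 0.07), Bdnf at 23.3 and 21.2 against 30.8 and 33.5 (0.50 ± 0.05) and Junb at 8.83 and 8.75 against 12.8 and 13.9 (0.56 ± 0.07). Those 3 had the smallest p values, and none of them overlapped between the times. Also higher were Fos (0.51 ± 0.07), Btg2 (0.41 ± 0.06), Jund (0.23 ± 0.04), Fosl2 (0.69 ± 0.11), Fosb (0.67 ± 0.14), Nr4a3 (0.36 ± 0.08), Egr4 (0.61 ± 0.15), Crem (0.15 ± 0.04), Gadd45g (0.24 ± 0.07), Egr3 (0.44 ± 0.16) and Jun (0.18 ± 0.06). Lower were Klf6 (-0.28 ± 0.04), Nptx2 (-0.28 ± 0.06), Csrnp1 (-0.75 ± 0.17), Klf2 (-0.39 ± 0.12), Dusp5 (-0.45 ± 0.15) and Trib1 (-0.29 ± 0.12). With nuclei of named classes alone, 11 were higher and 6 lower of 35 (42.9% of genes called). DESeq2 called 9 higher and 3 lower (32% of genes), and thinning to 1000 UMIs left 8 higher and none lower (28.9%).

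In glutamatergic-like nuclei, which use the excitatory transmitter glutamate, 12 of 34 members were higher at night and none lower, against 20.9% of genes called and 11.1% called higher (members' median 0.11, all genes 0.00). Fos was at 7.65 and 7.15 CPM at ZT8 and 12.0 and 15.2 at ZT20 (0.89 ± 0.11). Fosb was at 1.52 and 1.76 against 4.70 and 4.03 (1.42 ± 0.21), and Bdnf at 19.9 and 21.4 against 26.4 and 32.2 (0.51 ± 0.08). The night libraries were above the day libraries for these 3 genes. The others were Nr4a2 (1.04 ± 0.16), Nr4a3 (0.79 ± 0.11), Btg2 (0.63 ± 0.11), Fosl2 (1.12 ± 0.21), Dusp1 (0.51 ± 0.11), Junb (0.56 ± 0.14), Nr4a1 (0.29 ± 0.07), Jund (0.18 ± 0.06) and Crem (0.18 ± 0.07). Without ZT20 replicate 2 the count fell to 7. DESeq2 called 7 (7.54% of genes), and none of 13 testable members was called after thinning to 1000 UMIs (1.36%), where 1 had an unadjusted p under 0.05.

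Thalamic-like nuclei, all 3506 of which are also glutamatergic-like, gave the same 12 members higher and none lower of 34, against 19% of genes called and 10.2% called higher. Fos stood at 8.26 and 7.51 CPM at ZT8 against 12.4 and 16.9 at ZT20 (0.90 ± 0.12), Fosb at 1.90 and 1.73 against 5.54 and 4.63 (1.51 ± 0.21), and Btg2 at 9.72 and 7.26 against 13.9 and 15 (0.79 ± 0.12). All 3 had separate day and night libraries. The rest were Nr4a3 (0.75 ± 0.11), Nr4a2 (1.23 ± 0.21), Fosl2 (1.21 ± 0.22), Bdnf (0.46 ± 0.09), Nr4a1 (0.37 ± 0.08), Junb (0.63 ± 0.15), Jund (0.25 ± 0.07), Dusp1 (0.50 ± 0.14) and Crem (0.23 ± 0.07). The heat shock list summed to 684 and 734 CPM at ZT8 and 846 and 848 at ZT20 in glutamatergic-like nuclei and to 670 and 713 against 809 and 810 in thalamic-like nuclei, with 7 of 9 genes higher in each. Oligodendrocyte markers summed to 237 and 252 against 177 and 177 in glutamatergic-like and to 223 and 235 against 166 and 165 in thalamic-like nuclei. Their part in the members' changes was not tested. At equal makeup, 11 members were higher in glutamatergic-like and 10 in thalamic-like nuclei, against 16.7% and 14.3% of genes. Without ZT20 replicate 2 the count in thalamic-like nuclei fell to 8. DESeq2 called 4 members there (7.69% of genes), and thinning to 1000 UMIs left none, with 2 at an unadjusted p under 0.05 (1.14%).

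GABAergic-like nuclei, which use the inhibitory transmitter GABA, gave 1 member higher and 1 lower of 30, against 16.5% of genes called. Egr1 was at 27.3 and 23.4 CPM at ZT8 and 17.9 and 19.1 at ZT20 (-0.45 ± 0.13). Homer1, which holds 2 genes of the same strand within its span (Gm47075 and Gm47088), was at 99.3 and 96.5 against 109 and 113 (0.18 ± 0.06). Neither gene overlapped between the times. Homer1 lost its call with any 1 library left out, and Egr1 lost it without ZT8 replicate 1 or ZT20 replicate 1 (adjusted p = 0.172 and 0.0713). DESeq2 called no member (0 at an unadjusted p under 0.05; 4.85% of genes called), and at equal makeup none was called (3 at an unadjusted p under 0.05; 5.14%).

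In glia no member passed the test. The counts were 0 of 17 in astrocyte-like nuclei (2 at an unadjusted p under 0.05, Klf6 and Nptx2), 0 of 18 in oligodendrocyte-like (1, Gadd45g), 0 of 8 in precursor-like (2, Nr4a1 and Trib1) and 0 of 6 in microglia-like nuclei (1, Ier5). DESeq2 called none there, with 0 at an unadjusted p under 0.05 in each. The percentages of all genes called were 6.24, 10.6, 1.18 and 1.34 in that order. Without ZT8 replicate 1, 1 member was called in astrocyte-like nuclei. A test of the difference itself, the class by time term of neuron-like against astrocyte-like nuclei, called 0 of 36 members (4 at an unadjusted p under 0.05: Jund, Dusp1, Dusp6 and Crem; 3.17% of genes called). Against oligodendrocyte-like nuclei it called 0 of 35 (5: Jund, Homer1, Ier2, Klf6 and Crem; 4.21%). Both terms include members with too few UMIs to be tested within glia, where 17 were testable in astrocyte-like and 18 in oligodendrocyte-like nuclei. For the others the terms can show little. These data therefore do not show that the members' changes differ between neurons and glia.

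Single neuron clusters were compared next, since clusters were formed without the members. Of 39 clusters, 14 had at least 50 nuclei in every library. Over these, 31 of 243 tests of a member were called, 25 higher and 6 lower, or 12.8% against 2.7% over all genes. A DESeq2 Wald test called 3, against 1.17% of the 76899 tests of any gene to which it gave an adjusted p. Of the 31 edgeR calls, 3 were kept by DESeq2 and 8 were lost. The rest got no adjusted p from DESeq2, so they were not tested there. With any 1 library left out, edgeR called fewer members. Members were called in 8 clusters, and neuron clusters 2, 3, 4 and 14 held most of the calls. The filter on low counts keeps a gene with enough UMIs in 2 libraries, for members and all genes alike. A member scarce at 1 time could thus be tested only through the time at which it was high. Fosb in clusters 3 and 4 and Fosl2 in cluster 3 are of this kind. Such calls count in the 31 and are no support by themselves.

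Neuron cluster 2, led by Glis3, Cadps2 and Rnf220 and both glutamatergic-like and thalamic-like, had 7 members higher and none lower of 22, against 1.83% of genes called and 1.4% called higher (members' median 0.63, all genes 0.00). Fos was at 11.9 and 14.9 CPM at ZT8 and 45.0 and 43.4 at ZT20 (1.74 ± 0.21; edgeR adjusted p = 1.4e-06). Fosb was at 3.73 and 5.94 against 24.2 and 17 (2.10 ± 0.33), and Dusp1 at 10.8 and 7.06 against 19.6 and 25.2 (1.34 ± 0.28). In each case the lowest night library was above the highest day library. Btg2 (0.92 ± 0.21), Nr4a3 (0.84 ± 0.21), Junb (1.01 ± 0.25) and Npas4 (0.88 ± 0.24) were higher as well. Fos UMIs were found in 14 of 179 and 19 of 168 nuclei at ZT8 and in 21 of 107 and 20 of 108 at ZT20. Without ZT20 replicate 1 or ZT20 replicate 2 the count fell to 2, and Fos was the member called with any library left out. DESeq2 called 1 member.

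Neuron cluster 3, led by 9530026P05Rik, Unc13c and Galntl6 and left without a type name, had 9 members higher and none lower of 20, against 1.88% of genes called and 1.11% called higher (members' median 0.76, all genes 0.00). Btg2 was at 9.65 and 6.75 CPM at ZT8 and 31.6 and 30.5 at ZT20 (1.91 ± 0.30), and Fos at 4.02 and 5.25 against 19.6 and 28.7 (2.37 ± 0.37). Nr4a3 was at 3.22 and 1.5 against 20.4 and 9.94 (2.63 ± 0.52). No day library reached a night library in these genes. Junb (1.61 ± 0.31), Egr1 (1.37 ± 0.33), Homer1 (0.60 ± 0.13) and Crem (0.88 ± 0.21) were also higher. Fosb rose from 2 UMIs at ZT8 to 41 at ZT20, a ratio of 10.6 in share of UMIs (95% exact interval 2.76 to 90.7), and Fosl2 from 2 to 46, a ratio of 11.9 (3.12 to 101). These intervals cover counting error only. Members this low at ZT8, such as Fosb and Fosl2, passed the filter on low counts through the ZT20 libraries alone. They count in the 9 but are no support by themselves.

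The UMIs came from a small share of nuclei. Fos was found in 5 of 109 and 5 of 102 nuclei of cluster 3 at ZT8 and in 15 of 162 and 25 of 187 at ZT20, and single nuclei held up to 1 and 3 Fos UMIs by day and 10 and 15 by night. Leaving out ZT20 replicate 1 lowered the count to 5, and Btg2 and Fos were called with any library left out. DESeq2 called none in cluster 3, with 10 members at an unadjusted p under 0.05. The heat shock list summed to 677 and 699 CPM at ZT8 and 944 and 924 at ZT20 in this cluster, with 4 of 7 genes higher, and oligodendrocyte markers to 313 and 341 against 204 and 212. In cluster 2 the heat shock list summed to 698 and 729 against 795 and 835, with none of 7 called, and oligodendrocyte markers to 290 and 312 against 221 and 213. Their part in the members' changes was not tested.

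Neuron cluster 4, led by Col25a1, Lef1 and Vav3 and thalamic-like, had 4 members higher and 1 lower of 24, against 6.36% of genes called. Bdnf was at 27.3 and 25.6 CPM at ZT8 and 59.6 and 62.1 at ZT20 (1.19 ± 0.15), and Fos at 5.61 and 4.86 against 12.5 and 14.5 (1.34 ± 0.32). Both genes were higher in each night library than in each day library. Nptx2 was higher too (0.67 ± 0.20), in contrast to its lower level in all neuron-like nuclei. Fosb went from 3 UMIs to 20 (ratio 25.1, 95% exact interval 7.44 to 132). It passed the filter on low counts through the ZT20 libraries alone. Trib1 was lower, with 83 UMIs at ZT8 and 4 at ZT20, a ratio of 5.52 of day to night (2.07 to 20.7). The count fell to 2 without ZT8 replicate 1 and to 3 without ZT8 replicate 2 or ZT20 replicate 1, and Bdnf was the member called with any library left out. DESeq2 called 1 member of cluster 4. Oligodendrocyte markers there summed to 169 and 178 CPM at ZT8 and 141 and 127 at ZT20, and microglia markers to 58.4 and 64.7 against 81.6 and 76.6, and their part in the members' changes was not tested.

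Neuron cluster 14, led by Meis2, Pde1a and Arhgap6 and without a type name, went the other way, with 5 members lower and none higher of 17, against 3.32% of genes called and 1.77% called lower (members' median -0.85, all genes -0.01). Npas4 was at 45.2 and 29.0 CPM at ZT8 and 8.19 and 4.39 at ZT20 (-2.52 ± 0.43), and Arc at 33.9 and 19.3 against 4.09 and 0.878 (-3.31 ± 0.59). Egr1 was at 64.0 and 31.7 against 12.3 and 19.3 (-1.58 ± 0.35). In all 3 the day libraries were both above the night libraries, with the day libraries far apart from each other. Fos (-2.0 ± 0.50) and Nr4a1 (-1.44 ± 0.37) were lower as well. The cluster was small (50 and 54 nuclei by day, 83 and 95 by night), and Arc was found in 9 and 6 nuclei by day and in 3 and 1 by night.

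Without ZT8 replicate 1, whose levels of Fos, Egr1, Arc and Npas4 were the highest, 3 members of cluster 14 were called. Arc and Npas4 were called with any library left out, and DESeq2 called 1 member. Astrocyte markers summed to 245 and 302 CPM at ZT8 and 140 and 140 at ZT20 in this cluster, oligodendrocyte markers to 377 and 411 against 222 and 230, and their part in the members' changes was not tested. The heat shock list, at 885 and 763 against 837 and 958 CPM, overlapped between the times. Of 25 relay genes tested there, Mef2c alone was called, lower at ZT20 (-1.07 ± 0.15). Of 15 late response genes, Scg2 alone was called, higher at ZT20 (0.75 ± 0.15). Of all genes in the cluster, 3.32% were called. A shift of makeup within the cluster was not tested.

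**Figure D3:**
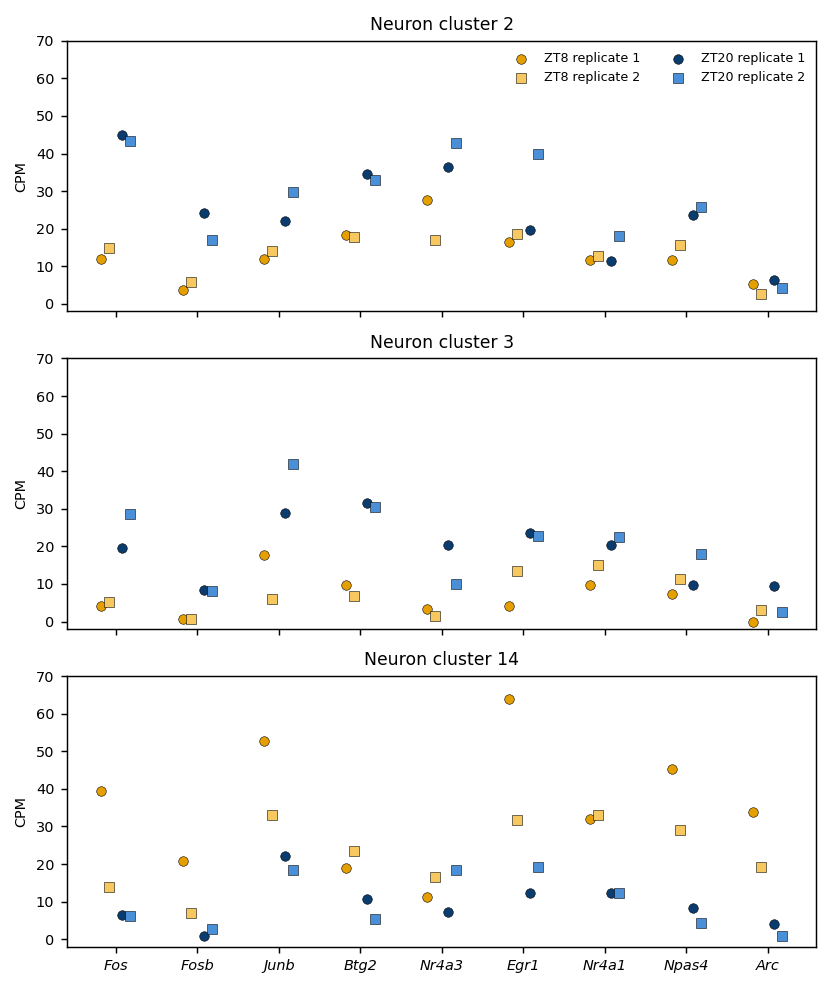
CPM of 9 members in neuron clusters 2, 3 and 14; each point is 1 library, with ZT8 in orange and yellow and ZT20 in blue. Fos, Fosb, Junb and Btg2 are higher in the blue ZT20 points of clusters 2 and 3, whereas Egr1, Npas4 and Arc are higher in the ZT8 points of cluster 14.

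The other calls in single clusters were few. Nr4a2 was higher in cluster 0 (1.48 ± 0.45) and in cluster 9, where it went from 3 UMIs to 38 (ratio 8.78, 95% exact interval 2.79 to 44.5). Btg2 was higher in cluster 6 (1.17 ± 0.30), and Bdnf (1.25 ± 0.31) and Nptx2 (0.99 ± 0.27) in cluster 19. The genes leading cluster 19 summed to 10967 and 13154 CPM at ZT8 and 15739 and 14926 at ZT20. Their part in the members' changes was not tested. The shares of all genes called were 5.9% in cluster 0, 3.63% in cluster 9, 1.25% in cluster 6 and 4.29% in cluster 19. None of these calls held with each library left out in turn. Clusters 2 and 3 had 5 higher members in common: Btg2, Fos, Fosb, Junb and Nr4a3, which are 5 of 7 and 5 of 9 of their calls.

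Whether a cluster differed from the other neurons was tested directly, with the class by time term at equal makeup. This test was added after seeing the data. Members are counted here if they could be tested within the cluster, whereas the percentages are over all genes in each fit. For cluster 14 these were 17622 genes, against 10103 testable within the cluster, so the 2 sets are not alike. Cluster 14 differed for 8 members that could be tested within it, against 1.86% of genes called. Npas4 led, with a change 2.64 lower on the log2 scale than in the other neurons. In those other neurons Npas4 was at 11.6 and 10.1 CPM at ZT8 and 10.8 and 12.9 at ZT20, with no gap between the times. Cluster 3 differed for 4 members (Fos, Egr1, Homer1 and Btg2; 0.251% of genes called), cluster 2 for Fos (0.19%), cluster 4 for Fosb, Bdnf and Trib1 (2.05%), cluster 19 for Nptx2 (1.6%), cluster 15 for Fos and Bdnf (0.171%) and cluster 5 for Fos and Nr4a3 (1.04%). Npas4 in cluster 14 was the difference called with any library left out.

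Levels across cell classes are a description, with no test, of means over the 4 libraries unless stated. The leading member of a class is the one with the highest ratio to the mean of the other classes, read only for members with at least 20 UMIs in the class, a minimum set after seeing the data. Klf2 and Klf4, zinc finger factors known for their role in blood vessel lining, were at 353 and 138 CPM in endothelial-like nuclei. Klf2 ranged from 276 to 483 CPM over the libraries there and from 0.514 to 0.820 in neuron-like nuclei, so the ranges lay far apart. Klf2 also led in fibroblast-like nuclei (60.1 CPM on 22 UMIs, 5.78 to 158). Klf6 led by this ratio in mural-like nuclei (78.5 CPM on 20 UMIs, 52.2 to 119), where Jund, the other member with enough UMIs, was at 126 CPM. Klf6 itself was higher in endothelial-like nuclei, at 133 CPM. In microglia-like nuclei the leading member was Dusp6, a phosphatase of ERK, at 48.9 CPM (35.2 to 65.5). Btg2 followed at 73.3 CPM in the same nuclei, second by its ratio to the other classes.

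In glia of neural origin other members led. Gadd45g, a growth arrest gene, was at 37.0 CPM in astrocyte-like nuclei (31.2 to 42.1) and Trib1 at 17.6 in precursor-like nuclei (8.43 to 27.9). Arc, best known from neurons, was at 8.70 CPM in oligodendrocyte-like nuclei (5.14 to 10.8, 87 UMIs) and at 2.13 to 3.06 CPM in neuron-like nuclei, so the ranges did not overlap. Crem led in ependymal-like nuclei (75.2 CPM, 57.4 to 91.7) and in tanycyte-like nuclei (87.1 CPM over the ZT20 libraries, 76.4 and 97.8), the latter with 1 nucleus in each ZT8 library. Fosb led in neuron-like nuclei, at 2.61 CPM, 3.95 times the mean of the other classes. Jun, Jund and Ier2 were at their lowest in neuron-like nuclei among the 10 classes.

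**Figure D4:**
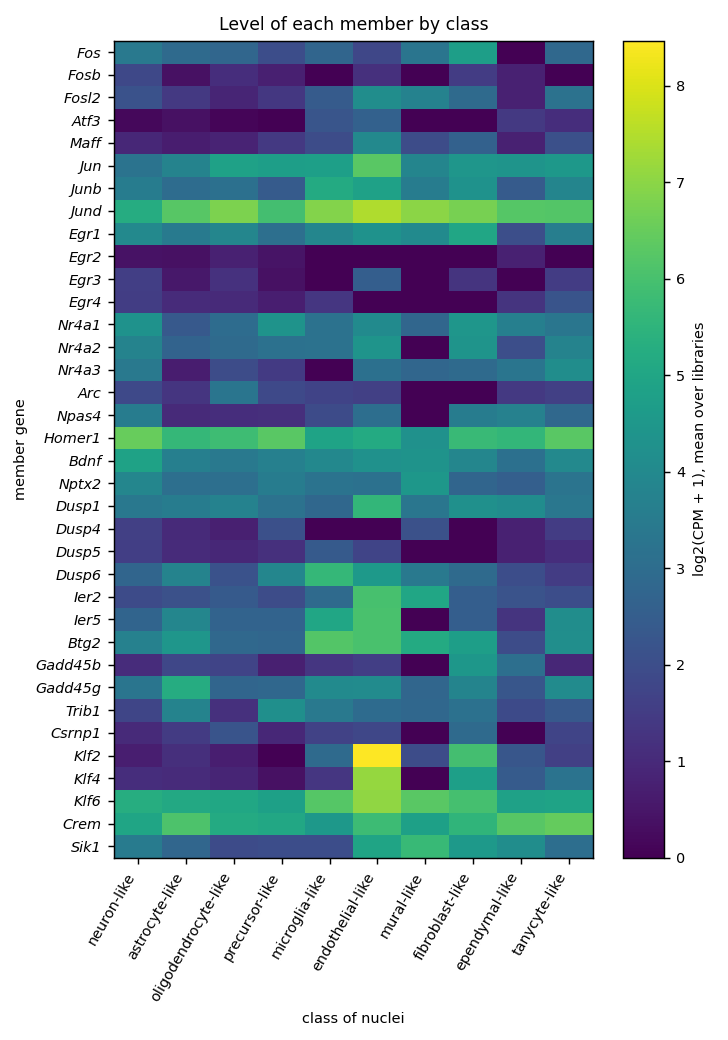
Level of the 36 members in 10 classes of nuclei, as log2(CPM + 1) of the mean over the libraries (the 2 ZT20 libraries for tanycyte-like nuclei); yellow is high and dark blue is 0 or near it. Klf2, Klf4 and Jund are bright in endothelial-like nuclei, and Homer1 is brightest in neuron-like nuclei.

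Among 37 neuron clusters, likewise without a test, Nr4a2 had a wide range, from 0.786 CPM to 146 in cluster 36 and 85.4 in cluster 17, with a median of 4.17. Homer1 was at 434 CPM in cluster 35 and 214 in cluster 14, against a median of 85.4. Arc, Npas4 and Egr3 also peaked in cluster 35, at 26.3, 31.5 and 26.3 CPM on 15 to 18 UMIs each. That cluster (1 and 2 nuclei by day, 28 and 20 by night) is nearly all from night libraries.

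Co-detection within single nuclei was read after thinning each nucleus to the same number of UMIs, with shallower nuclei left out. Of 14 fast members (Fos, Fosb, Junb, Egr1, Egr2, Egr3, Egr4, Arc, Npas4, Nr4a1, Nr4a3, Ier2, Btg2 and Dusp1), 3 or more were found at 2000 UMIs in 19 of 2378 and 27 of 2546 neuron-like nuclei at ZT8 and in 36 of 2858 and 40 of 2780 at ZT20. These are 0.799, 1.06, 1.26 and 1.44% of nuclei, or 0.930% ± 0.185 (SD, n = 2) by day and 1.35% ± 0.127 by night, without overlap. At 5000 UMIs the shares were 2.99 and 2.68% by day and 2.81 and 3.48% by night, and they overlapped. Makeup was not held equal for these shares, and neuron types differed in direction. In GABAergic-like nuclei the shares at 5000 UMIs were lower by night, at 4.502 and 5.077% against 3.557 and 3.164%. They overlapped there at 2000 UMIs. In glutamatergic-like nuclei the shares at 5000 UMIs were higher by night, at 2.736 and 1.909% against 3 and 4.994%. The part of makeup in the neuron-like shares was not tested. Thinning left out 25 neuron-like nuclei at 2000 UMIs and 232 at 5000. In astrocyte-like nuclei 1 of 1613 passed at 2000 UMIs, and in oligodendrocyte-like nuclei 0 of 2627, which allows a share of up to 0.114%. These limits bear on nuclei with such UMIs at this depth, not on nuclei that express the genes, and cover counting error only. In PVN-like neurons it was 0 of 410 at 2000 UMIs, which allows up to 0.732%, and 2 of 405 at 5000.

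At 5000 UMIs, the shares of nuclei holding another fast member were higher with Fos than without it over the libraries, except for Egr2, whose ranges overlapped. At 2000 UMIs, Ier2 overlapped as well (0 to 2.70% with Fos against 0.608 to 0.729% without). No test was run on these shares. At the deeper setting, 8.14 to 12.8% of neuron-like nuclei with Fos also held Fosb, over the 4 libraries, against 0.331 to 0.629% of nuclei without Fos. For Btg2 the shares were 18.6 to 28.2% against 3.72 to 5.05%, for Egr1 22.2 to 33.3% against 4.83 to 5.88% and for Junb 22.2 to 27.0% against 2.79 to 4.49%. Each of these ranges lay above that of nuclei without Fos. Neuron types were pooled here, so differences between types and joint detection within a type were not separated. Unnamed barcodes of few UMIs had higher levels of some members than neuron-like nuclei did: Fos was at 25.4, 31.3, 32.1 and 33.3 CPM there and Jund at 273 to 294. Their part in the pooled counts was not tested; the named classes alone are given with the pooled result.

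**Figure D5:**
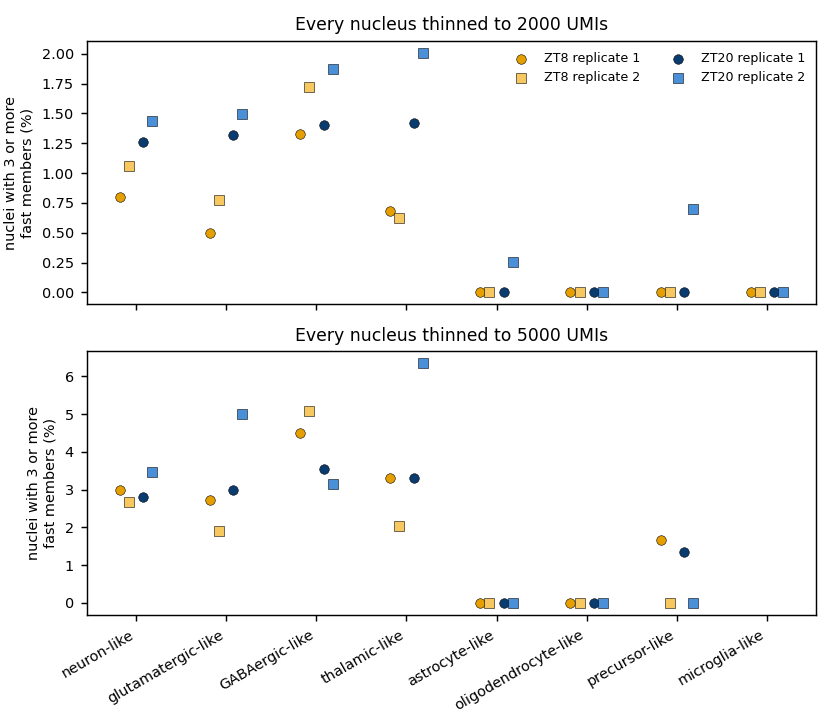
Percent of nuclei with UMIs of 3 or more of the 14 fast members, by class, with nuclei thinned to 2000 UMIs (top) and 5000 UMIs (bottom); each point is 1 library, with ZT8 in orange and yellow and ZT20 in blue. The neuron-like points lie at 0.799 to 1.44% at 2000 UMIs and 2.68 to 3.48% at 5000, and the astrocyte-like and oligodendrocyte-like points at or near 0.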

How the data were processed

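Raw UMI counts per gene and nucleus were deposited by the authors, made with Cell Ranger 7.0.0 per the file headers; the submitters' processing notes name Cell Ranger, STAR 2.6 and build mm10. Intron counting and barcode calling are not given in the sources used here. No normalization preceded deposit.

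Barcodes under 500 genes or over 5% mitochondrial UMIs were dropped, and the highest doublet scores were removed, 0.8% of nuclei per 1000 (326 to 702 per library), since the automatic threshold marked at most 1 nucleus in each. Leiden clusters (scanpy 1.11.5, resolution 1, 3000 variable genes without the members, 40 components, 20 neighbours) were named from marker scores with thresholds set after the clusters were seen. UMIs were summed per library and class and tested with edgeR 4.0.16 (filterByExpr, TMM, quasi-likelihood F test, two-sided, Benjamini-Hochberg over all genes tested, called at an adjusted p under 0.05). DESeq2 1.42.0 was an alternative.

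The members and lists were chosen with earlier results of these data known. Named genes are all called members; the 8 smallest p in neuron-like nuclei and 3 in other classes get each library's values. The replicate numbers in the labels were not read as pairs.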

Additional observations from a re-analysis of the deposited data

Results flagged for a closer look

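A test of the difference between a neuron cluster and all other neurons at equal makeup, added after seeing the data, marked the following members. It was the class by time term (edgeR quasi-likelihood test, adjusted p under 0.05). Members are listed if they could be tested within the cluster, and the other neurons were not tested on their own. The shares of genes called are over all genes in each fit, a wider set than those testable within the cluster. Values are the log2 change in the cluster minus that in the other neurons. Cluster 14 was marked most often, with Fos (-2.82), Junb (-1.60), Egr1 (-1.55), Nr4a1 (-1.70), Arc (-3.29), Npas4 (-2.64), Homer1 (-0.72) and Btg2 (-2.09) all lower against the rest, where 1.86% of genes were called. In the other neurons Npas4 was at 11.6 and 10.1 CPM at ZT8 and 10.8 and 12.9 at ZT20. Npas4 was the 1 of these 8 that kept its call with each library left out in turn.

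Cluster 3 was marked for Fos (1.74), Egr1 (1.52), Homer1 (0.63) and Btg2 (1.44), all higher (0.251% of genes called), and cluster 2 for Fos (1.19, 0.190%). Cluster 4 was marked for Fosb (3.53), Bdnf (0.81) and Trib1 (-2.82), against 2.05% of genes. Fosb could be tested within cluster 4 only through the ZT20 libraries, where it was high. Cluster 19 was marked for Nptx2 (1.09, 1.60%). Fos (-1.83) and Bdnf (-1.28) in cluster 15 (0.171%) and Fos (-1.89) and Nr4a3 (-1.83) in cluster 5 (1.04%) were lower against the rest, while no member was called within those 2 clusters themselves. Outside cluster 14, none of the differences kept its call with each library left out.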

How the results depend on the processing

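The number of members called moved with the tool, the depth given to each nucleus, the makeup of the neurons and single libraries. With a DESeq2 Wald test it was 12 in all nuclei pooled, 11 in neuron-like, 7 in glutamatergic-like, 4 in thalamic-like and 0 in GABAergic-like nuclei, 1, 0, 1 and 1 in clusters 2, 3, 4 and 14, and 3 over all 14 clusters. Over the clusters, DESeq2 gave no adjusted p for many of the members that edgeR called. With every nucleus thinned to 1000 UMIs it was 8 pooled, 4 in neuron-like and 0 in glutamatergic-like, thalamic-like and GABAergic-like nuclei, with fewer members testable. At equal makeup it was 10 in neuron-like and 0 in GABAergic-like nuclei. With no filter on low counts cluster 14 had 8. Leaving out 1 library gave 15 to 20 pooled, 16 to 19 in neuron-like, 7 to 12 in glutamatergic-like, 8 to 13 in thalamic-like, 1 to 2 in GABAergic-like and 0 to 1 in astrocyte-like nuclei, 2 to 5, 5 to 7, 2 to 4 and 3 to 7 in clusters 2, 3, 4 and 14, and 18 (without ZT20 replicate 2) to 26 over all clusters. Signs turned at equal makeup in neuron-like nuclei among the members called there for Egr3 (-0.000587), Nptx2 (0.00115), Dusp5 (0.0934) and Klf6 (0.14). After thinning they turned for Jun (-0.0209) and Egr3 (-0.0604) pooled and for Bdnf (-0.11) in thalamic-like nuclei. The sign also turned for Jun, all nuclei pooled, with the nucleus filter tightened to 1000 genes and 1% mitochondrial UMIs (-0.00473). None of these passed the test under the alternative, and the cause was not tested. Among members not called before, Nr4a1 turned from -0.10 to a call of 0.24 at equal makeup. Co-detection of 3 or more fast members was 2.83% at ZT8 and 3.14% at ZT20 at 5000 UMIs. DESeq2 size factors in edgeR kept the counts named here within 1.5 times (20 pooled, 19 in neuron-like nuclei, 30 over all clusters).

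The replicate block moved none of the counts named here by over 1.5 times: 21 pooled, 19 in neuron-like nuclei and 35 over all clusters. Equal numbers share no stated day or litter, and the deviations of same-numbered libraries correlated at -0.00116 over 14819 genes. The alternatives for single clusters and the test of each cluster against the other neurons were added after seeing the data. So were equal makeup in classes other than neuron-like and the pool of named classes (17 calls).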
